A study of Mus musculus with 4 samples.

Results

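Integrins and laminins are the receptors and the basement membrane proteins through which cells hold on to the matrix around them. In the deposited expression table of MC38 cells, the genes whose symbol names an integrin alpha subunit, an integrin beta subunit or a laminin chain were taken. There were 37 such genes among 36445 rows, made up of 18 integrin alpha, 8 integrin beta, 5 laminin alpha, 3 laminin beta and 3 laminin gamma genes. MC38 is a mouse line labelled as colon cancer, grown in culture. In the treated group the cells were given 5-fluorouracil (5-FU), a pyrimidine analogue that blocks thymidylate synthase and enters RNA and DNA, at 1 mM for 24 h, and in the other group they were given PBS for 24 h. Polyadenylated RNA was sequenced in 2 libraries per group, and all 4 libraries came from this 1 line. The values are FPKM, which scale fragments to gene length and library size, so levels of different genes can be set side by side.

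The 9 colon epithelial markers examined, among them Epcam, Krt8 and Cdx2, did not reach 1 FPKM in any library (highest value 0.823 FPKM, Krt20 in PBS replicate 2), while Vim, a mesenchymal intermediate filament gene, measured 1069 and 1036 FPKM in 5-FU and 973 and 889.7 FPKM in PBS. The labelled tissue of origin is therefore not visible in these markers. Vim was 1 of 7 mesenchymal markers examined, all of which reached 1 FPKM in some library. In the test given below, 3 of them fell (Fn1, Snai2 and Twist1), 4 did not pass, Vim among them, and 0 rose. Over all tested genes 31.2% fell and 22.1% rose. Estimated depth, in units of 1e6 reads, was 20.8 and 20.6 in 5-FU and 41.3 and 41.6 in PBS. The 5-FU libraries lay closer to each other (median absolute log2 difference 0.0729 over tested genes) than the PBS libraries did (0.271). The labels do not say whether replicates were separate cultures, so each p-value reflects no more than how far these samples spread, and that spread may be technical. In bulk RNA, fewer cells of a kind and less RNA per cell cannot be told apart.

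An integrin is a pair of an alpha and a beta subunit that spans the membrane, binds matrix or other cells outside and links to actin through talin and kindlin inside. The alpha subunit largely sets the ligand: some bind laminin, some collagen, and others the RGD motif of fibronectin and vitronectin. A laminin is a cross-shaped trimer of an alpha, a beta and a gamma chain that polymerises into the basement membrane under epithelia. In the gut, laminins and the integrins that bind them anchor epithelial cells and are widely studied in carcinoma invasion.

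After 5-FU, the laminin receptor subunit gene Itga6 and the laminin chain gene Lamc1 were lower by 3.99-fold and 3.50-fold. The fibronectin receptor pair Itga5 and Itgb1 did not pass the test. Of the 37 genes, 13 reached 1 FPKM in 2 or more of the 4 libraries and were tested with limma on log2(FPKM + 1). A gene passed when its two-sided p, adjusted by Benjamini-Hochberg over all 11644 tested genes, was under 0.05. Of these 13, 8 fell and 4 did not pass. Over all tested genes, 22.1% rose and 31.2% fell, or 53.3% in either direction. A fall of 1 log2 or more was called in 4 of the 13 (Itga6, Itga3, Itgav and Lamc1) and in 15.7% of all tested genes. This count depends on the added 1: with 0.1 added instead, Itga1, Itga7 and Lama5 also fell by 1.57, 1.26 and 1.02 log2. The share over all tested genes was not counted at that setting. By class, 5 of 6 tested integrin alpha genes fell, 1 of 2 integrin beta genes, the single tested laminin alpha gene, 0 of 2 laminin beta genes (1 at an unadjusted limma p under 0.05) and, among the laminin gamma genes, Lamc1. No integrin gene rose (0 of 8, and 0 at an unadjusted limma p under 0.05), except that Itga5 and Itgb1 passed as higher without PBS replicate 2, a fit in which the error rests on the close 5-FU pair and the lone PBS library is assumed to vary like it. Itga3 and Itga1 reached 1 FPKM in the PBS libraries alone, so they entered the test only through the group where they were higher. Itga7 reached it in 5-FU replicate 1 but not in replicate 2 (1.14 and 0.785 FPKM), so it too needed its PBS values to enter. The counts over tested genes are therefore a description.

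The median log2 difference (5-FU minus PBS) was -0.80 over the 13 genes and -0.097 over all tested genes. Scaling the libraries by median ratios moved the median of all genes to 0.013 and quantile normalization moved it to 0.021, so differences are also given relative to that median. The count over all genes was 2578 higher and 3628 lower, against 3193 and 3218 with median-ratio scaling and 2946 and 2825 with quantile normalization. In 9 of the 13 genes both 5-FU values lay below both PBS values, and in Itgb1 and Lamb2 the groups overlapped. Across all tested genes the 5-FU libraries lay above both PBS libraries in 35.9% and below both in 45.1%, or apart in 81.0%. Leaving out a 5-FU library changed no sign among the 13. Without 5-FU replicate 1 the log2 difference of Itga6 was -1.69 and without 5-FU replicate 2 -1.76, against -1.73 with all 4 libraries. For Itga7 it was -0.93 and -0.68, against -0.80. No call among the 13 held in either fit, where the error rests on the PBS pair and the lone 5-FU library is assumed to vary like it. Without PBS replicate 1, 9 were lower, and without PBS replicate 2, 10 were. In 12 of the 13 genes PBS replicate 2 was above PBS replicate 1, against 4941 of all 11644 tested genes. The median of this difference was 0.281 log2 over the 13 and -0.067 over all tested genes. The part of this spread in the results was not tested.

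**Figure D1:**
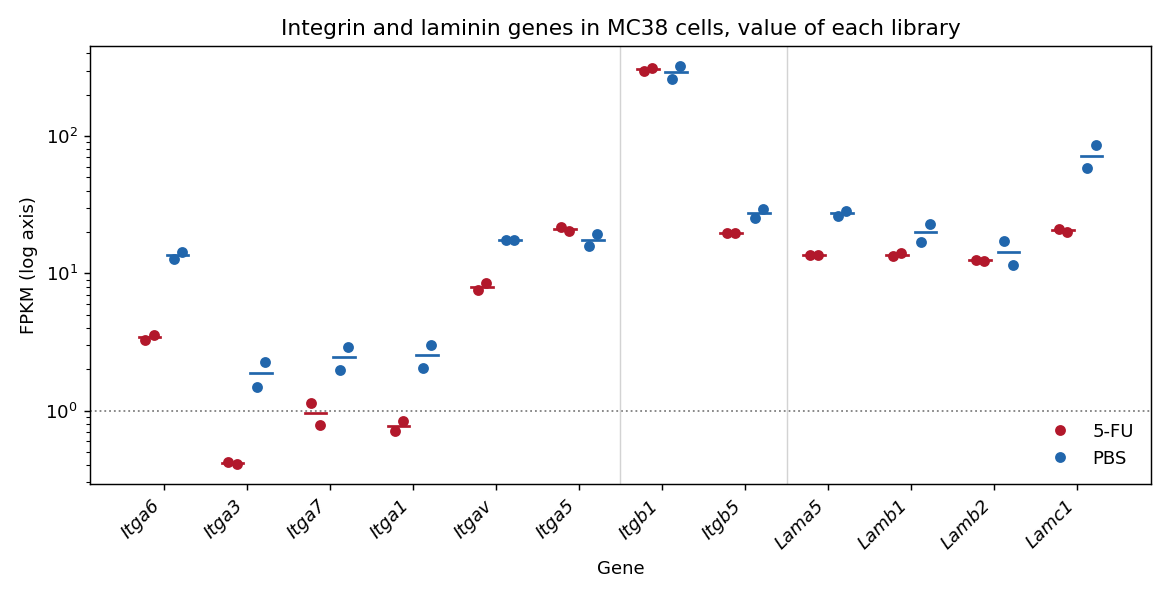
FPKM of tested integrin and laminin genes (log axis). Each point is 1 library, 5-FU in red and PBS in blue, each short line is the mean of 2 libraries, and the dotted line marks 1 FPKM. Itgb1 lay highest in both groups, and the 5-FU points of Itga6 (3.29 and 3.52 FPKM) lay below the PBS points (12.8 and 14.4).

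The stretch of 250 bases before the transcription start is shown for a pair of genes that fell (Itgav and Lama5) and a pair that did not pass (Itga5 and Itgb1), to set their proximal promoters side by side. The sequences are from RefSeq (GRCm38.p6), read 5′ to 3′ in the direction of the gene, and capitals mark each GC box, GGGCGG on either strand.
Itgav (chr2:83724147-83724396, plus strand): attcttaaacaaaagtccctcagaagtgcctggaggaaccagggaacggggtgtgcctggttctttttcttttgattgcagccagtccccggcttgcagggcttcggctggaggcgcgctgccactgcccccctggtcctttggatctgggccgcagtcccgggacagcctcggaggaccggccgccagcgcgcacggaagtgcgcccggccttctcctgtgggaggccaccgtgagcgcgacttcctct
Lama5 (chr2:180225860-180226109, minus strand): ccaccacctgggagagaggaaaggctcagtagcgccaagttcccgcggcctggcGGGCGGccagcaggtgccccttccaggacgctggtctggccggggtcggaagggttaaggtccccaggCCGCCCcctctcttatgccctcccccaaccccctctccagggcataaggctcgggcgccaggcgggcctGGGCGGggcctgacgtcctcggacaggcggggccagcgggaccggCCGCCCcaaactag
Itga5 (chr15:103366792-103367041, minus strand): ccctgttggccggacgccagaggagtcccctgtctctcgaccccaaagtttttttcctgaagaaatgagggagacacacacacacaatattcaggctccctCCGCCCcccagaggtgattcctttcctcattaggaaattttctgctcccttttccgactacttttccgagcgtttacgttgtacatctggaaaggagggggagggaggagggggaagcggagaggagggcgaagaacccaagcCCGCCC
Itgb1 (chr8:128685404-128685653, plus strand): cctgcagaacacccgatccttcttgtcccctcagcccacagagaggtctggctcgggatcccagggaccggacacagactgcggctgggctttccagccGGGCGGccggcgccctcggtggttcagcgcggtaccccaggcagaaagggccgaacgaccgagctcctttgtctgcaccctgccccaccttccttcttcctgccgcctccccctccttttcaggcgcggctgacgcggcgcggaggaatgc

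Of the 13 tested genes, 9 had such a stretch, and the RefSeq set used here held none for Itga6, Itga7 and Lamc1. A GC box, the binding motif of Sp1, was found in 3 of the 5 genes that fell and in 3 of the 4 that did not pass, with 4 matches in Lama5, 2 in Itga5, 1 in Itgb1 and 0 in Itgav. Among all 32817 RefSeq stretches of this length, 32.7% held a GC box. The stretches also differed in GC content, which was 43.6% for Lamb2 and 55.6% to 72.4% for the others. The median over all stretches was 52.4%, and the part of GC content in these matches was not tested. The other motifs searched on both strands were TGANTCA (AP-1, in 6.75% of all stretches), ACGTG (the core of the hypoxia response element, in 16.6%) and TATAAA (the TATA box, in 12.4%). None of these 3 was in any of the 9 stretches, which says only that the letters are not there, so no GC box overlapped another of these motifs.

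The alpha subunits grouped here as laminin-binding were Itga3, Itga6 and Itga7, and all 3 fell. Itga6, whose product pairs with the beta subunits of Itgb1 or Itgb4 (chromosome 2, 71745616 to 71858416, plus strand, GRCm38), measured 3.29 and 3.52 FPKM in 5-FU and 12.8 and 14.4 FPKM in PBS. Both 5-FU values lay below both PBS values. The log2 difference was -1.73 ± 0.13 (SE), or -1.63 relative to the median of all genes (adjusted p = 0.00278), and 3.65% of tested genes had a lower difference. Itga3, whose product pairs with the subunit of Itgb1 (chromosome 11, 95044474 to 95076801, minus strand), was listed at 0.420 and 0.408 FPKM in 5-FU and at 1.48 and 2.26 FPKM in PBS, again without overlap. Its log2 difference was -1.01 ± 0.18 (adjusted p = 0.0107), which the low level understates, since the means differed 4.51-fold. Itga7, best known as the laminin receptor of muscle (chromosome 10, 128933818 to 128958282, plus strand), measured 1.14 and 0.785 FPKM in 5-FU and 1.98 and 2.91 FPKM in PBS. It fell by 0.80 log2 (adjusted p = 0.0265), a call lost with quantile normalization (adjusted p = 0.0626) and when low genes were kept in (0.0935); adjusted p ranged from 0.00106 to 0.187 when 1 library was left out. The 3 genes together summed to 4.85 and 4.71 FPKM in 5-FU and to 16.3 and 19.6 FPKM in PBS.

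The RGD-binding alpha subunits differed among themselves. Itgav, whose product pairs with several beta subunits to bind vitronectin and latent TGF-beta (chromosome 2, 83724397 to 83806916, plus strand), measured 7.498 and 8.509 FPKM in 5-FU and 17.4 and 17.5 FPKM in PBS. The groups did not overlap, and the log2 difference was -1.04 ± 0.13 (adjusted p = 0.00494), or -0.94 relative to the median of all genes. Itga5, which makes the fibronectin receptor together with Itgb1 (chromosome 15, 103344286 to 103366763, minus strand), measured 21.6 and 20.3 FPKM in 5-FU and 15.7 and 19.3 FPKM in PBS. Both 5-FU values were above both PBS values, by little over the higher PBS library, and the log2 difference of 0.25 ± 0.14 did not pass (adjusted p = 0.201). Without PBS replicate 2 it passed (0.39, adjusted p = 0.00377). The ratio of Itga5 to Itgav FPKM was 2.88 and 2.39 in 5-FU and 0.903 and 1.11 in PBS. The ratio of Itga5 to Itga6 FPKM was 6.55 and 5.77 in 5-FU and 1.23 and 1.34 in PBS. With 2 libraries per group, the smallest p that an exact permutation test of a ratio allows is 0.333 (two-sided), and no such test was made.

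Itga1 encodes a collagen receptor subunit (chromosome 13, 114953096 to 115101964, minus strand). It measured 0.706 and 0.835 FPKM in 5-FU and 2.04 and 3.02 FPKM in PBS, without overlap, and fell by 0.98 log2 (adjusted p = 0.0128). The call was lost with the trend with gene length removed (-0.40, adjusted p = 0.153) and when low genes were kept in (adjusted p = 0.0564). Pelo, a gene at a mean of 22.5 FPKM over the 4 libraries, lies within Itga1 on the same strand and shares no exonic base with it in GENCODE release M21. Gm49395 shares 685 exonic bases with Itga1 on the same strand, and the antisense transcript Gm13684, at 0.0772 FPKM, shares 634 with Itgav. The sources used here do not give the strand setting of the counting, so reads in those stretches cannot be assigned with certainty.

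The summed FPKM of the 18 integrin alpha genes was 36.6 and 36.4 in 5-FU and 53.4 and 61.2 in PBS. Itga5 made up 58.9% and 55.7% of it in 5-FU and 29.5% and 31.6% in PBS. The laminin-binding subunits made up 13.2% and 12.9% in 5-FU and 30.4% and 32.0% in PBS. Itgav made up 20.5% and 23.4% in 5-FU and 32.6% and 28.6% in PBS. Each of these shares separated the groups, and the shares of 1 library are tied, because they sum to the whole.

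**Figure D2:**
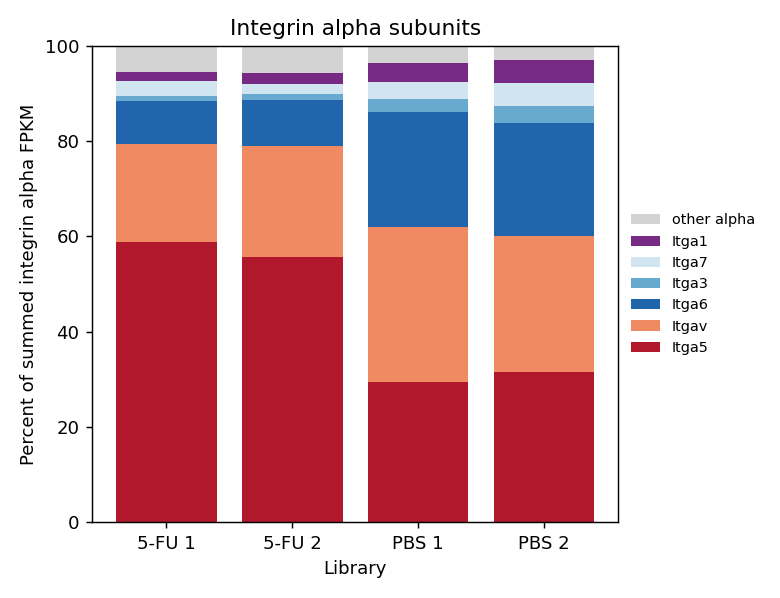
Share of the summed FPKM of the integrin alpha genes taken by each gene, in percent, for each library. The Itga5 share was 58.9% and 55.7% in 5-FU against 29.5% and 31.6% in PBS, and the Itga6 share was 8.99% and 9.66% in 5-FU against 23.96% and 23.5% in PBS.

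Among the beta subunits, Itgb1, the common partner of most alpha subunits (chromosome 8, 128685654 to 128733200, plus strand), was the most abundant of all 37 genes, at 298 and 315 FPKM in 5-FU and 260.3 and 325 FPKM in PBS. The 5-FU values lay between the PBS values. The log2 difference was 0.07 ± 0.15 (adjusted p = 0.694), and its sign turned with quantile normalization (-0.23) and without PBS replicate 1 (-0.085), while it passed as higher without PBS replicate 2 (0.23, adjusted p = 0.0185). Itgb5, a partner of the Itgav product in binding vitronectin (chromosome 16, 33829665 to 33949338, plus strand), measured 19.74 and 19.72 FPKM in 5-FU and 25.2 and 29.4 FPKM in PBS. It fell by 0.44 log2 (adjusted p = 0.0390), a difference of -0.35 relative to the median of all genes. Its call was lost with median-ratio scaling (-0.32, adjusted p = 0.111), quantile normalization (adjusted p = 0.0712) and low genes kept in (0.0678). With the trend with gene length removed, the difference was 0.087 (adjusted p = 0.645). The ratio of Itgb1 to the summed alpha FPKM was 8.15 and 8.64 in 5-FU and 4.87 and 5.31 in PBS.

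Itgb4, the hemidesmosome partner of the Itga6 product, stayed just under the level needed for testing, at 0.910 and 0.995 FPKM in 5-FU and 0.914 and 1.15 FPKM in PBS. These values correspond to about 133 and 144 reads in 5-FU and 265 and 336 reads in PBS. The groups overlapped.

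Among the laminin chains, Lamc1 stood furthest apart. Lamc1, the gamma chain of most laminins (chromosome 1, 153218922 to 153332786, minus strand), measured 20.9 and 20.2 FPKM in 5-FU and 58.0 and 85.7 FPKM in PBS. The groups were far apart, although the PBS libraries also differed from each other. The log2 difference was -1.73 ± 0.21, or -1.63 relative to the median of all genes (adjusted p = 0.00494), and ranged from -2.01 to -1.45 when 1 library was left out. The ratio of Lamc1 to Lama5 FPKM was 1.55 and 1.49 in 5-FU and 2.20 and 2.995 in PBS.

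The chain genes Lama3 and Lamb3, whose products belong to an epithelial laminin, were low throughout. Lamb3 was listed at 0.385 and 0.467 FPKM in 5-FU and 0.260 and 0.347 FPKM in PBS. Lama3 was listed at 0.0139 and 0.0422 FPKM in 5-FU and 0.115 and 0.0511 FPKM in PBS, or about 3.12 and 9.35 reads in 5-FU and 50.9 and 22.9 reads in PBS. Neither reached the level needed for testing.

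Lama5, the alpha chain of the main laminin of adult epithelial basement membranes (chromosome 2, 180176373 to 180225859, minus strand), measured 13.5 and 13.5 FPKM in 5-FU and 26.4 and 28.6 FPKM in PBS. It fell without overlap by 0.97 log2 ± 0.11 (SE), or -0.88 relative to the median of all genes (adjusted p = 0.00464), and held at least 98.2% of the summed laminin alpha FPKM in every library. Lamb1, a beta chain found with Lama5 and Lamc1 (chromosome 12, 31265234 to 31329644, plus strand), measured 13.3 and 14.0 FPKM in 5-FU and 16.8 and 22.9 FPKM in PBS. Although the 5-FU values lay below the PBS values, the log2 difference of -0.49 ± 0.18 did not pass (adjusted p = 0.0731). It passed as lower without PBS replicate 1 (-0.70, adjusted p = 0.000273) and without PBS replicate 2 (-0.28, adjusted p = 0.0148), where the error rests on the 5-FU pair alone. Lamb2, the beta chain of synaptic and kidney basement membranes (chromosome 9, 108479736 to 108490530, plus strand), measured 12.5 and 12.3 FPKM in 5-FU and 17.2 and 11.5 FPKM in PBS. The groups overlapped, and the log2 difference was -0.17 ± 0.21 (adjusted p = 0.533), 0.11 without PBS replicate 1 and -0.44 without PBS replicate 2 (adjusted p = 0.00205).

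**Figure D3:**
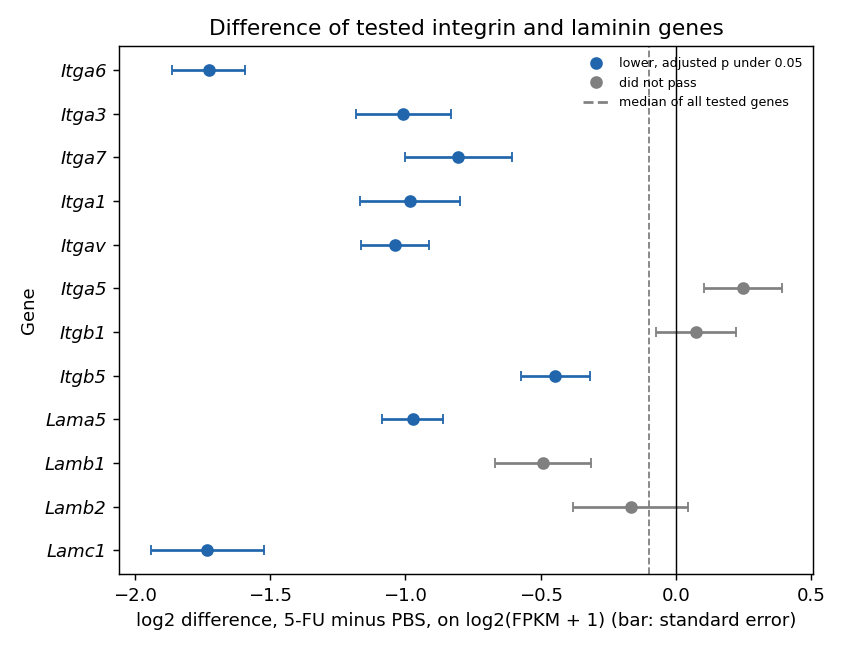
Log2 difference (5-FU minus PBS, on log2(FPKM + 1)) of tested integrin and laminin genes, each with its standard error as a bar, from limma over 2 libraries per group. Blue genes fell and grey genes (Itga5, Itgb1, Lamb1, Lamb2) did not pass; the dashed line is the median of all tested genes, -0.097.

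By mean level in 5-FU, Itgb1 stood first at 306 ± 11.7 FPKM (SD, n = 2 here and in the next sentence), followed by Itga5 (20.9 ± 0.891), Lamc1 (20.5 ± 0.546) and Itgb5 (19.7 ± 0.0150). In PBS, Itgb1 (293 ± 45.6) was followed by Lamc1 (71.9 ± 19.6), Lama5 (27.5 ± 1.61), Itgb5 (27.3 ± 3.01) and Lamb1 (19.9 ± 4.30). Itga5 and Lamc1 in 5-FU, and Lama5 and Itgb5 in PBS, were neighbours whose means differed by less than their spread.

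The remaining 24 genes were not tested, and the highest value among them was 1.15 FPKM (Itgb4). Of these, 8 had a mean of at least 0.1 FPKM over the 4 libraries (Itga10, Itga2b, Itgae, Itgal, Itgb2, Itgb4, Itgb7 and Lamb3) and 16 were lower. Itgal, the alpha subunit of the leukocyte integrin that binds ICAM proteins, was listed at 0.444 and 0.471 FPKM in 5-FU and 0.629 and 0.422 FPKM in PBS, and its partner Itgb2 at 0.0787 and 0.175 FPKM in 5-FU and 0.135 and 0.402 FPKM in PBS. Of 9 leukocyte markers, 6 were not tested, among them Ptprc (at most 0.0342 FPKM) and Cd3e (listed at 0 in every library), and 3 were tested without passing. Of these 3, Cd68 measured 17.95 and 16.05 FPKM in 5-FU and 6.29 and 19.3 FPKM in PBS, Cd14 11.2 and 10.03 FPKM in 5-FU and 13.2 and 9.68 FPKM in PBS, and Lyz2 2.43 and 2.64 FPKM in 5-FU and 1.57 and 3.19 FPKM in PBS. The summed level of the 9 markers was 31.7 and 28.8 FPKM in 5-FU and 21.1 and 32.2 FPKM in PBS, and its part in the values of Itgal and Itgb2 was not tested. Itga2b, the platelet fibrinogen receptor subunit, was listed at 0.518 and 0.672 FPKM in 5-FU and 0.555 and 0.823 FPKM in PBS, while its partner Itgb3 was at 0.0732 and 0.0740 FPKM in 5-FU and 0.0451 and 0.0285 FPKM in PBS. Itgb6 and Itgb8, further partners of the Itgav product, stayed at or below 0.0203 and 0.135 FPKM. Of the 24 genes, 4 (Itga4, Itga8, Itgam and Lamc3) had under 3 estimated reads in every library, and 5 were listed at 0 in at least 1 library.

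At these levels the unequal depth shows in the unit. Lamc3 had about 2 and 1 reads in 5-FU and about 2 and 1 reads in PBS, yet was listed at 0.0158 and 0.00796 FPKM in 5-FU and 0.00794 and 0.00394 FPKM in PBS, because PBS was sequenced 2.00 times as deeply. A level of 3 reads, a floor that covers counting error only, would be 0.0237 and 0.0239 FPKM for this gene in 5-FU and 0.0119 and 0.0118 FPKM in PBS. No fold is given for these genes.

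The differences followed gene length, and 7 of the 13 tested integrin and laminin genes span 50 kb or more. Among tested protein-coding genes spanning 100 to 200 kb, 54.9% of 812 fell and 6.16% rose (median log2 difference -0.59), against 28.3% and 22.4% of 5120 genes of 10 to 50 kb (median -0.061). All 4 tested integrin and laminin genes of 100 to 200 kb fell (Itga1, Itga6, Itgb5 and Lamc1), as did 3 of 6 of 10 to 50 kb (Itga3, Itga7 and Lama5). At 50 to 100 kb, where 43.6% of 1547 genes fell and 12.1% rose, Itgav fell and Lamb1 did not pass. Once the trend with gene length was removed, the log2 difference was -1.21 for Itga6 (adjusted p = 0.00301), -1.21 for Lamc1 (0.00635) and -0.59 for Itgav (0.0191). With this change 6 of the 13 genes fell.

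**Figure D4:**
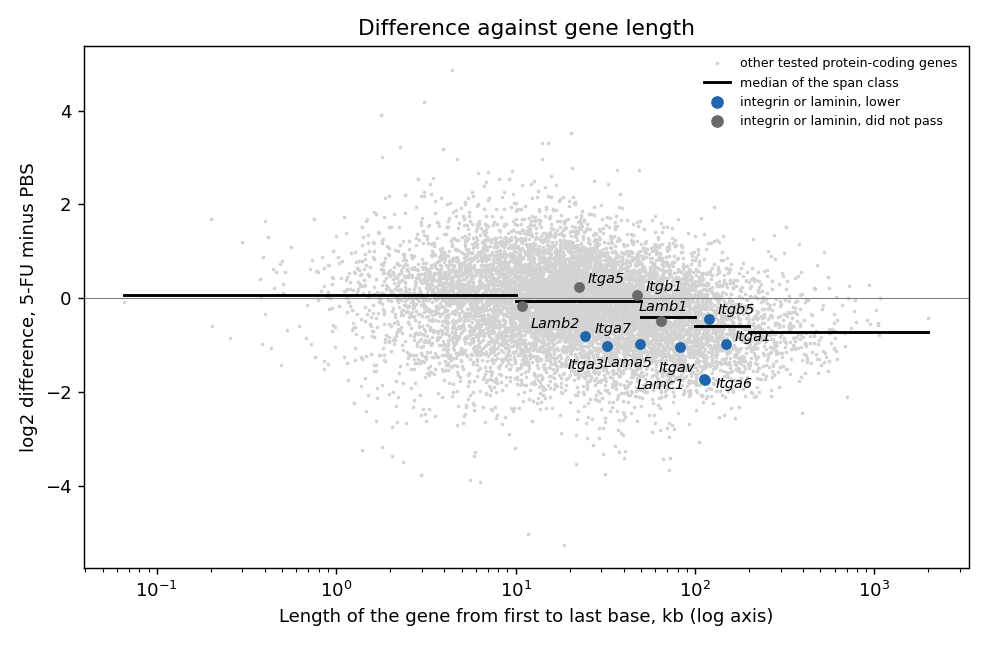
Log2 difference (5-FU minus PBS) against the length of the gene in kb (log axis) for tested protein-coding genes. Grey points are other genes, black lines are the medians of the 5 length classes, from 0.078 under 10 kb to -0.72 at 200 kb or more, and larger labelled points are integrin and laminin genes; Itga6 and Lamc1, at -1.73 each, lay below the median of their class (-0.59).

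Behind the receptors, the adhesion complex core holds the adaptors, kinases and actin linkers that assemble on integrin tails. Of 33 tested genes of this list, 4 rose, 14 fell and 15 did not pass, where 22.1% of all tested genes rose and 31.2% fell, and the median log2 difference was -0.52 against -0.097 over all tested genes. In this list and the next 2, Ptk2b, Emilin1, Col4a6 and Smoc1 reached 1 FPKM in the PBS libraries alone and so entered the test only through the group where they were higher, and the list counts are a description. Crk, an SH2 adaptor gene, measured 10.3 and 10.7 FPKM in 5-FU and 23.8 and 23.2 FPKM in PBS (adjusted p = 0.00377). Ptk2, which encodes focal adhesion kinase, measured 9.43 and 10.5 FPKM in 5-FU and 23.4 and 26.0 FPKM in PBS (adjusted p = 0.00391). Crkl, the paralog of Crk, rose by 0.71 log2, the Src substrate gene Bcar1 by 0.88 and the exchange factor gene Arhgef7 by 0.54. Bcar1 lost its call with quantile normalization (adjusted p = 0.0528) and when low genes were kept in (0.108), and Arhgef7 when low genes were kept in (0.0911). Among the direct integrin activators, the talin genes Tln1 and Tln2 fell by 0.56 and 1.09 log2, and the kindlin gene Fermt2 measured 17.1 and 17.5 FPKM in 5-FU and 21.4 and 27.8 FPKM in PBS, without overlap, a log2 difference of -0.47 that did not pass (adjusted p = 0.0609). Tln1, Tln2 and Fermt2 were chosen after their values were seen. With the trend with gene length removed, 8 genes of the list rose and 8 fell. The list median was then 0.013, against 0.019 over all tested genes. Ptk2 still fell, by 0.56 log2 (limma adjusted p = 0.0306), against 1.23 before.

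The other ligands of integrins held 12 tested genes, of which 1 rose, 4 fell and 7 did not pass. The share that fell was near that of all tested genes (31.2%), and the share that rose was below theirs (22.1%). The median was -0.62, against -0.097 over all tested genes. Under the alternatives the list median ranged from -0.79 (0.1 added) to -0.011 (no filter on low values). With a minimum mean of 5 FPKM it was -0.059 over 8 genes, against -0.023 over all genes of that fit. Thbs2, a thrombospondin gene, rose to 34.5 and 35.6 FPKM in 5-FU, against 19.4 and 19.0 FPKM in PBS. Adam9, a membrane metalloproteinase gene, fell to 18.5 and 18.8 FPKM in 5-FU, against 50.7 and 64.6 FPKM in PBS. Emilin1 and Tgfb3 fell by 0.79 and 0.80 log2, although their means differed 3.56-fold and 2.00-fold, since the added 1 shrinks the difference of low genes. Fn1 and Spp1 were chosen after their values were seen. Fn1, which encodes fibronectin, the ligand of the Itga5 and Itgb1 pair, fell to 227 and 218 FPKM in 5-FU, against 389 and 588 FPKM in PBS (adjusted p = 0.0155). Spp1, which encodes osteopontin, measured 697 and 688 FPKM in 5-FU and 737 and 2681 FPKM in PBS, so 1 PBS library stood apart and the difference did not pass (adjusted p = 0.223).

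Among the partners of laminin in the basement membrane, 7 of 11 tested genes fell, 4 did not pass and 0 rose (0 also at an unadjusted limma p under 0.05), where 31.2% of all tested genes fell, with a median of -0.83. Agrn and Hspg2 encode agrin and perlecan, proteoglycans that bind laminin. Agrn measured 4.88 and 4.64 FPKM in 5-FU and 21.1 and 22.3 FPKM in PBS, and Hspg2 6.96 and 6.92 FPKM in 5-FU and 23.9 and 27.0 FPKM in PBS (adjusted p = 0.00270 for both). Smoc1, a matricellular calcium-binding protein gene, fell to 0.893 and 0.860 FPKM in 5-FU, against 10.9 and 6.54 FPKM in PBS. The groups did not overlap in any of these genes. With the trend with gene length removed, 5 genes of the list fell and 1 rose. The list median was then -0.55, against 0.019 over all tested genes.

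Of 21 tested genes for other laminin and matrix receptors and tetraspanins, 4 rose, 9 fell and 8 did not pass, where 22.1% of all tested genes rose and 31.2% fell, with a median of -0.31. Dag1, which encodes dystroglycan, the main laminin receptor that is not an integrin, fell 6.07-fold, to 10.6 and 10.4 FPKM in 5-FU, against 53.6 and 74.1 FPKM in PBS (log2 difference -2.48 ± 0.18 SE, adjusted p = 0.00275). The collagen receptor kinase gene Ddr1 and the sarcoglycan gene Sgcb fell by 1.37 and 1.10 log2. Slc3a2, which encodes the CD98 heavy chain that binds integrin beta tails, rose to 228 and 219.5 FPKM in 5-FU, against 118 and 137 FPKM in PBS. The syndecan gene Sdc4 and the hyaluronan receptor gene Cd44 rose by 0.53 and 0.44 log2, and neither call held with quantile normalization (adjusted p = 0.1895 and 0.1068), under which 1 gene of the list rose.

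Most of these list calls were also lost without a 5-FU library, where the error rests on the PBS pair. Agrn, Hspg2 and Dag1 stayed lower under every alternative run and passed in each that kept all 4 libraries. Without 5-FU replicate 1, the adhesion complex core, the ligands, the basement membrane partners and the other receptors held 0, 0, 0 and 0 higher genes (limma; 1, 1, 0 and 1 at an unadjusted p under 0.05) and 0, 0, 2 and 1 lower genes (10, 3, 7 and 6). Without 5-FU replicate 2 they held the same numbers (0, 1, 0 and 1 higher and 10, 3, 7 and 7 lower at an unadjusted p under 0.05). Without PBS replicate 1 they held 9, 1, 0 (1 at an unadjusted p under 0.05) and 6 higher and 20, 7, 10 and 13 lower genes, and without PBS replicate 2 4, 2, 2 and 6 higher and 20, 6, 9 and 11 lower genes.

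**Figure D5:**
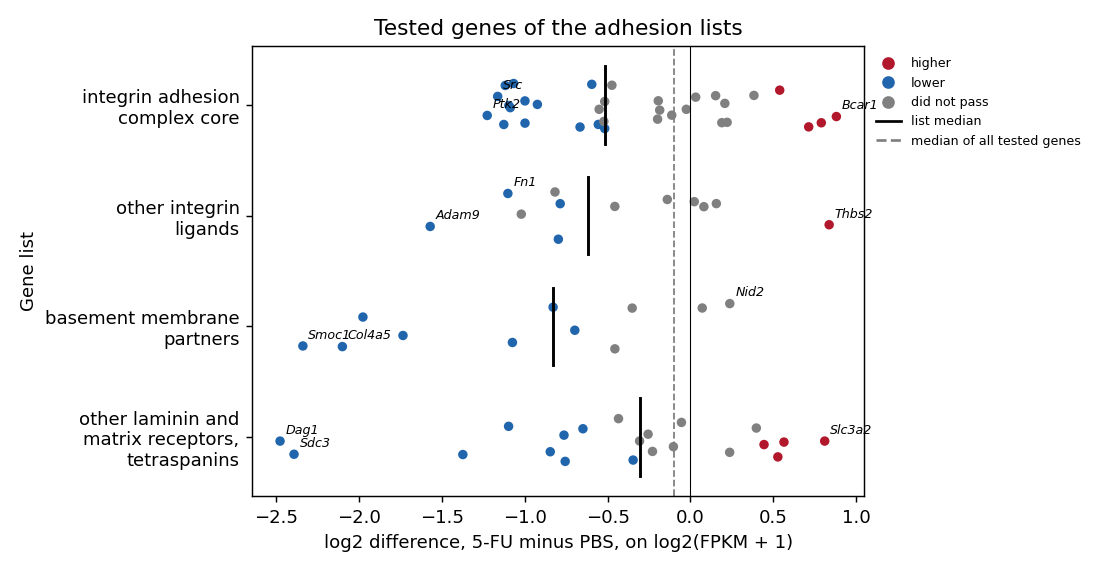
Log2 difference (5-FU minus PBS, on log2(FPKM + 1)) of each tested gene in the 4 adhesion lists, 1 point per gene, red where it rose, blue where it fell and grey where it did not pass; vertical position within a list carries no value. Black lines are the list medians (-0.52, -0.62, -0.83 and -0.31 from top to bottom), and the dashed line is the median of all tested genes.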

How the data were processed

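The authors deposited 1 table of FPKM values per gene and library. STAR 2.4.1a, Picard 2.9.0 and the build GRCm38 are listed, without roles, in the submitters' processing notes; no source used here gives the counting program, annotation or strand setting. GENCODE release M21 supplied gene positions and lengths by ID (36379 of 36445; all 37 integrin and laminin genes). Depth was estimated from FPKM times exonic length, whose commonest smallest step is 1 read; of values under 100 reads, 65.1%, 65.1%, 63.2% and 63.5% (PBS replicates 1 and 2, 5-FU replicates 1 and 2) fell within 0.02 of whole reads, so read numbers are estimates.

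The comparison used limma 3.58.1 in R 4.3.3 (lmFit and eBayes, trend on mean level) on log2(FPKM + 1), for genes reaching 1 FPKM in 2 or more libraries, two-sided, with Benjamini-Hochberg adjustment over all of them. The fit was also run on simulated data with the same spread in both groups. The PBS and 5-FU pairs differ in spread, so that run does not check the fit under unequal spread. The added 1 shrinks log2 differences of low genes; a fold is the ratio of the groups' mean FPKM. Tested integrin and laminin genes are named (1 is not reported here, nor is 1 gene of the adhesion complex core), and of each adhesion list up to 3 genes per direction with the smallest adjusted p. Members and lists were chosen with earlier results of these data known. The list entries Icap1, Bm40, Cd98, Nov, Ctgf and Cyr61 matched no symbol. Marker lists for colon epithelial, mesenchymal, leukocyte, endothelial and platelet, and fibroblast cells held 9, 7, 9, 7 and 6 genes, of which 0, 7, 3, 0 and 5 reached 1 FPKM in some library; summed FPKM was 2.09 and 2.34, 1324 and 1281, 31.7 and 28.8, 0.611 and 0.638, and 18.7 and 18.1 in 5-FU, and 0.799 and 1.56, 1403 and 1525, 21.1 and 32.2, 0.229 and 0.291, and 26.6 and 39.5 in PBS. Alternatives were pseudocounts of 0.1 and 0.5, no filter, a minimum mean of 5 FPKM, quantile normalization, median-ratio scaling, no trend on mean level, a block for replicate number, removal of the trend with gene length and leaving out each library.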

Additional observations from a re-analysis of the deposited data

How the results depend on the processing

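Over all tested genes 2578 rose and 3628 fell; with a minimum mean of 5 FPKM 2158 fell. Leaving out 1 library moved these counts to between 259 and 4385 higher and between 237 and 5249 lower. The integrin and laminin count lower (8) was 5 with no filter on low values and 5 with a minimum mean of 5 FPKM, and between 0 and 10 when 1 library was left out, with between 0 and 3 higher. For the adhesion complex core (4 higher, 14 lower), no filter gave 1 higher and removing the trend with gene length gave 8 higher and 8 lower; leaving out 1 library gave 0 to 9 higher and 0 to 20 lower. Quantile normalization and removal of the length trend each gave 1 higher basement membrane gene, where the count was 0; leaving out 1 library gave 0 to 2 higher and 2 to 10 lower. For the other ligands, no filter gave 2 higher and a minimum mean of 5 FPKM 2 lower; leaving out 1 library gave 0 to 2 and 0 to 7. For the other receptors, quantile normalization gave 1 higher; leaving out 1 library gave 0 to 6 higher and 1 to 13 lower. Without a 5-FU library the error rests on the PBS pair, and without a PBS library on the closer 5-FU pair. Beyond this, and the fewer samples or genes that enter some fits, the cause of these shifts was not tested.

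Same-numbered libraries did not deviate together (correlation of deviations -0.010), so the numbers were not taken as pairs. With the replicate number as a block, 7 integrin and laminin genes fell (Itgb5 did not pass, adjusted p = 0.0627), Arhgef7 did not pass (0.0597), and 2 of the other receptor genes rose against 4 without it.

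Signs turned for Itgb1 with quantile normalization (-0.23) and without PBS replicate 1 (-0.085), for Itgb5 with the length trend removed (0.087) and for Lamb2 without PBS replicate 1 (0.11). Without PBS replicate 2 the differences were 0.23 for Itgb1 and -0.44 for Lamb2. The calls of Itga6, Itga3, Itgav, Lama5 and Lamc1 kept direction under every alternative run and passed in all but the 2 without a 5-FU library; Itga3 was not tested with a minimum mean of 5 FPKM. Depth limits the 24 low genes, most of which hold few reads.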
